A study of Mus musculus with 8 samples.

Results

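Most CpG-dense stretches measured in these blood stem cells were almost free of methylation, a few were highly methylated and a few lay in between. These partly methylated stretches were collected as the autosomal 1 kb windows with at least 20 measured CpGs whose methylation level, averaged over 8 mice, was from 25 to 75%. There were 147 such windows among 13260 CpG-dense windows, and among 149067 windows with any CpG measured in all 8 mice. The level of a window in a mouse was the share of its reads that were methylated, summed over its CpGs, and only CpGs with at least 10 reads in every mouse were used. The level itself chose the windows, so the levels below are a description and were not tested. The genotype of the mice was not used in the choice.

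The cells were hematopoietic stem cells (HSCs), the rare bone marrow cells that renew themselves and give rise to all blood lineages. They were sorted as Lin-, c-Kit+, Sca-1+, Flk2-, CD48- and CD150+ cells from individual C57BL/6 mice and were not cultured. DNA methylation was read by enhanced reduced representation bisulfite sequencing (ERRBS), which sequences CpG-rich restriction fragments after unmethylated cytosines have been converted. The 4 knockouts (mice 25, 28, 45 and 46) had the genotype Atg12fl/fl with Mx1-Cre, and the 4 controls (mice 1, 34, 36 and 37) are labelled wild type, while the design text gives them floxed Atg12 without Cre. Atg12 encodes a ubiquitin-like protein needed to form autophagosomes. Every mouse, knockout or control, was injected with poly(I:C) when 4 weeks old, and HSCs were collected 2 to 3 months after that. Mx1-Cre is switched on by interferon and is not restricted to HSCs, and poly(I:C) is itself an interferon inducer. Neither the sorted identity nor the loss of Atg12 could be checked from these methylation tables.

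In mammals DNA methylation is placed on cytosines of CpG pairs, and CpG islands, the dense clusters at many promoters, are kept free of it. An intermediate level in such a cluster has several known forms. At imprinted genes, the allele of 1 parent can carry methylation that the other lacks, and many genes of the germ line carry promoter methylation in body cells. A level measured over many cells does not say whether each cell holds 1 methylated allele or some cells hold methylated alleles only, and these cannot be told apart in window levels.

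To show where the measured CpGs lie, the 250 bases before a RefSeq transcript start (GRCm38.p6, the mm10 build) are given for 3 imprinted genes and 3 genes of the male germ line whose promoters lie in member windows. They run 5′ to 3′ along the gene's strand, and capitals mark the CpGs measured in all 8 mice. The imprinted genes are Plagl1 at chr10:13090582-13090831 on the plus strand, Igf2r at chr17:12769707-12769956 on the minus strand and Gnas at chr2:174284070-174284319 on the plus strand.
Plagl1: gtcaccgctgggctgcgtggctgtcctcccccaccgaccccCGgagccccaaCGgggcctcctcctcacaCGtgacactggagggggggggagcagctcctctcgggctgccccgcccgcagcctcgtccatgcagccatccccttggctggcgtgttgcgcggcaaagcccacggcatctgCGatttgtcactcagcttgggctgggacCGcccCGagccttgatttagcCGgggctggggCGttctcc
Igf2r: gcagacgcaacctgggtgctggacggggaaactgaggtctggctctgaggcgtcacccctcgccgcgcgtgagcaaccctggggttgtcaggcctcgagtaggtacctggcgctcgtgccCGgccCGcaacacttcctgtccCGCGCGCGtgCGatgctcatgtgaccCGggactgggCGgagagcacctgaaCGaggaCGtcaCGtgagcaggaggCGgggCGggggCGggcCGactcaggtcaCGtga
Gnas: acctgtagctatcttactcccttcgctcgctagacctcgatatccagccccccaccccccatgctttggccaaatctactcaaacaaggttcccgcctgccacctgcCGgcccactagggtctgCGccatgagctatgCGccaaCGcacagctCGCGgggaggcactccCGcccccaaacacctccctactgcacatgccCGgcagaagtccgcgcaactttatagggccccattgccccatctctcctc
The germ-line genes are Boll at chr1:55362729-55362978 on the minus strand, Rbmxl2 at chr7:107209195-107209444 on the plus strand and Papolb at chr5:142530077-142530326 on the minus strand.
Boll: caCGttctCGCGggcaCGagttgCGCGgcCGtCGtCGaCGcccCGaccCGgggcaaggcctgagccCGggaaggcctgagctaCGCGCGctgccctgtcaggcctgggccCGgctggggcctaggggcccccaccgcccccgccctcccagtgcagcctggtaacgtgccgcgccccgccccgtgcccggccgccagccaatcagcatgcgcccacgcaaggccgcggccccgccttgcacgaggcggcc
Rbmxl2: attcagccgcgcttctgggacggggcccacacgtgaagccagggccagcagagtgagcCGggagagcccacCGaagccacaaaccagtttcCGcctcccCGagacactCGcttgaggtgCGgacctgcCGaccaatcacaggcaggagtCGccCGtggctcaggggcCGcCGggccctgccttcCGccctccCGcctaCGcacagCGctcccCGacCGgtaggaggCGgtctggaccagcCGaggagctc
Papolb: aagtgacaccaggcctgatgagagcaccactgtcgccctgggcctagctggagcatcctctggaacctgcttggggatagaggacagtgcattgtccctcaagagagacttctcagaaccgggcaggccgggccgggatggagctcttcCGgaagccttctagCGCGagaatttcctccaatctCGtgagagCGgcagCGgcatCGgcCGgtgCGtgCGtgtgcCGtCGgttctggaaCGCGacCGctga

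In the Plagl1 stretch all 8 measured CpGs were partly methylated, from 27.6 to 37.2% as means of the mice. In the Igf2r stretch 16 of 17 measured CpGs were at 25 to 75%, and the range was 11.6 to 37.3%. In Gnas the 8 measured CpGs were at 19.4 to 35.1%, and 2 of them were at 25 to 75%. Another listed start of Gnas lies at chr2:174327768, so this stretch does not stand for every Gnas promoter. In the 3 germ-line stretches printed, 15 of 17 CpGs of Boll were at 25 to 75%, with a highest CpG at 93.5%, 15 of 19 of Rbmxl2 with a highest at 66.8%, and 13 of 15 of Papolb with a highest at 80.2%. None of the measured CpGs in these 6 stretches was under 10% as a mean of the mice. These 6 were picked for display, and the germ-line promoters were not all alike: the stretch of Rbm46, not printed, averaged 18.7%, with 8 measured CpGs from 2.82 to 34.6% and 2 of them at 25 to 75%.

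Short sequences of 2 kinds were counted in the 250 bases of each promoter, on both strands: TGCCGC, the core bound by the imprint-maintaining zinc finger protein ZFP57, and CACGTG, an E-box that reads the same on both strands. The sequences do not overlap each other, and each contains a CpG. TGCCGC was present in 7 of the 39 promoters that overlap a member (17.9%), in 8.70% of all 31396 autosomal promoters of the table and in 18.2% of those with at least 10 CpGs, against 7 of the 30 members' promoters with at least 10 CpGs (23.3%). CACGTG was present in 7 of the 39 (17.9%), in 6.02% of all promoters and in 9.33% of those with at least 10 CpGs, against the same 7 of 30 (23.3%). The stretches are not all separate: Plagl1 and Hymai overlap and are both counted for each sequence, and 2 overlapping stretches of Tdrd1 are both counted for CACGTG. In the stretches above, TGCCGC occurs once in Plagl1, once in Boll and at 2 places in Papolb, and CACGTG occurs once in Plagl1, once in Rbmxl2 and at 2 places in Igf2r. A match describes these letters only.

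Partly methylated windows were rare, and dense windows gathered at the low end of the scale. Of the 13260 dense windows, 12919 were under 25%, with 12358 under 5%, and only 194 were over 75%. The member levels had a median of 41.9%, and 97 of 147 members (66.0%) were under 50%. The windows just under the lower limit were at Ncmap (24.6%) and Gm40862 (24.6%), and those just above it at Cilp2 (25.1%) and Npr1 (25.3%). At the upper limit Flt4 (73.1%) and Rin2 (74.98%) fell inside and Lingo3 (75.1%) and another window of Shank3 (75.8%) outside. No gap in the levels sets the members apart at either limit.

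**Figure D1:**
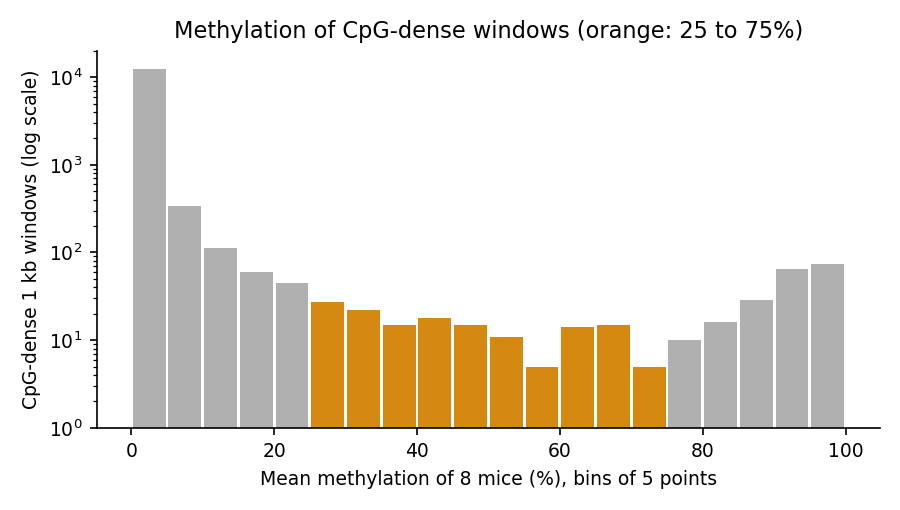
Number of CpG-dense 1 kb windows (y axis, log scale) by mean methylation of the 8 mice (x axis, %, bins of 5 points). The 147 members, in orange, fill the low ground between 12919 windows under 25% and 194 over 75%.

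The member windows held 20 to 100 measured CpGs, with a median of 27, and were read deeply. The mean coverage per CpG and mouse had a median of 274 reads and ran from 80.2 to 670 reads over the members. These reads carry no molecular identifiers and are not independent molecules, so coverage overstates the number of DNA copies behind a level. The windows with the most CpGs were the adjoining pair of Rbmxl2 (100 and 71 CpGs), the window of Tmem267 (79), that of Gm40881 (67) and that of Dchs1 (66).

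Members lay within genes more often than at their starts. Of 147 members, 133 (90.5%) overlapped a RefSeq gene, a smaller share than the 95.7% of dense windows under 25% and the 95.9% of those over 75%. Only 34 of the 142 on chromosomes present in the promoter table (23.9%) overlapped a promoter, taken as 250 bases before to 50 after a start. The promoter share was 58.5% for the dense windows under 25% and 7.81% for those over 75%. A transcript start lay within 1000 bp of 31.0% of members, 73.2% of the windows under 25% and 10.9% of those over 75%. In closeness to a transcript start the members stood between the other classes.

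The members were spread over 18 of 19 autosomes. Chromosome 7 held 21 members, 2.30% of its dense windows, and chromosome 16 held 0 of 408. On chromosome 12 a stretch from 18 to 24 Mb held 9 members among 42 dense windows (21.4%), at levels from 26.7 to 63.0%. Its members lie at predicted genes such as Gm40881, Gm3973, Gm38702 and LOC108167983, of no known role, or away from any gene. In that stretch 32 windows were under 25% and 1 was over 75%. Reads from near-identical copies could be placed on either copy by an aligner, and what the authors did with such reads is not stated in the labels.

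Imprinted genes were the list with the most members. Of 28 genes on a list of imprinted genes that had a dense window at or within 5000 bp, 14 (50%) had a member, against 159 of 10748 protein-coding genes (1.48%). Genes that share a window were each counted, as for Igf2r and Airn, Blcap and Nnat, Commd1 and Zrsr1, and Gnas and Gnasas1. The list also holds RNA genes, which the protein-coding background does not. The 14 member windows at these 14 genes ranged from 25.6 to 40.9%, with a median of 33.7%, and all 14 were under 50%. They lie at Plagl1, which encodes a growth-restraining zinc finger factor, Grb10, an adaptor that dampens insulin and growth factor signalling, and Igf2r with its antisense RNA gene Airn, where the receptor clears IGF2. Others lie at the Gnas and Gnasas1 locus (4 windows), which encodes the stimulatory G protein subunit. Further ones lie at Cdkn1c (2 windows), which encodes the cell cycle inhibitor p57, and at Impact, a regulator of translation. The remaining members lie at Nnat within Blcap, at Zrsr1 within Commd1, and at Magel2 and Mkrn3 of the Prader-Willi region.

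The Plagl1 window (chr10:13090001-13091000, 30 CpGs) was at 26.6, 42.5, 51.8 and 36.03% in knockouts 25, 28, 45 and 46, and at 40.4, 40.4, 34.98 and 38.5% in controls 1, 34, 36 and 37. The controls lay within the range of the knockouts, and all 30 CpGs were partly methylated as means of the mice. The Grb10 window (chr11:12026001-12027000, 55 CpGs) was at 26.95, 24.9, 32.6 and 36.3% in the knockouts and at 38.6, 26.9, 39.0 and 45.4% in the controls, in the same order. Control 34 was as low as the lower knockouts, and the other controls were above every knockout.

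The Igf2r window (chr17:12769001-12770000, 41 CpGs) was at 31.1, 45.3, 42.1 and 26.4% in the knockouts and 33.3, 23.1, 35.3 and 28.9% in the controls. The Zrsr1 window (chr11:22972001-22973000, 47 CpGs) was at 31.6, 48.9, 48.9 and 42.1% and at 43.6, 28.04, 39.6 and 44.2%. In both windows the groups overlapped. The Gnas window with most CpGs (chr2:174299001-174300000, 50 CpGs) was at 26.7, 38.8, 40.7 and 39.0% and at 41.0, 29.7, 40.7 and 41.6%. Knockout 25 and control 34 were low there, and the other 6 mice lay within 3 points of each other. The next window of Gnas was also a member, at 34.3%.

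At the larger of the Cdkn1c windows (chr7:143459001-143460000, 43 CpGs) knockout levels were 18.1, 23.6, 29.0 and 20.5% and control levels were 29.9, 20.6, 31.0 and 32.4%. Nnat (chr2:157560001-157561000, 24 CpGs) was at 22.8, 41.4, 23.1 and 25.8% and at 41.2, 27.8, 34.1 and 44.5%. The groups overlapped in each of these windows. Mkrn3 (chr7:62419001-62420000, 21 CpGs) was at 27.4, 31.7, 42.7 and 35.8% in the knockouts and 37.7, 19.98, 35.7 and 37.2% in the controls. Magel2 (chr7:62377001-62378000, 24 CpGs) varied least in this group, from 32.0 to 39.5%. Magel2 and Mkrn3 also differed from the rest of the group in their CpGs: only 13 of 24 and 4 of 21 were partly methylated.

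Impact (chr18:12973001-12974000, 21 CpGs) varied most. It was at 10.6, 12.7, 50.7 and 25.7% in the knockouts and 33.2, 0.0417, 44.3 and 41.1% in the controls, with a pooled SD between mice of a genotype of 19.4 points. The Gnas window at the transcript start printed above (chr2:174284001-174285000, 25 CpGs) had the next largest SD of the group, 14.9 points, at 9.64, 21.1, 41.0 and 19.5% and at 38.7, 5.62, 39.0 and 37.6%. Control 34 was the lowest mouse in both and knockout 25 the next.

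**Figure D2:**
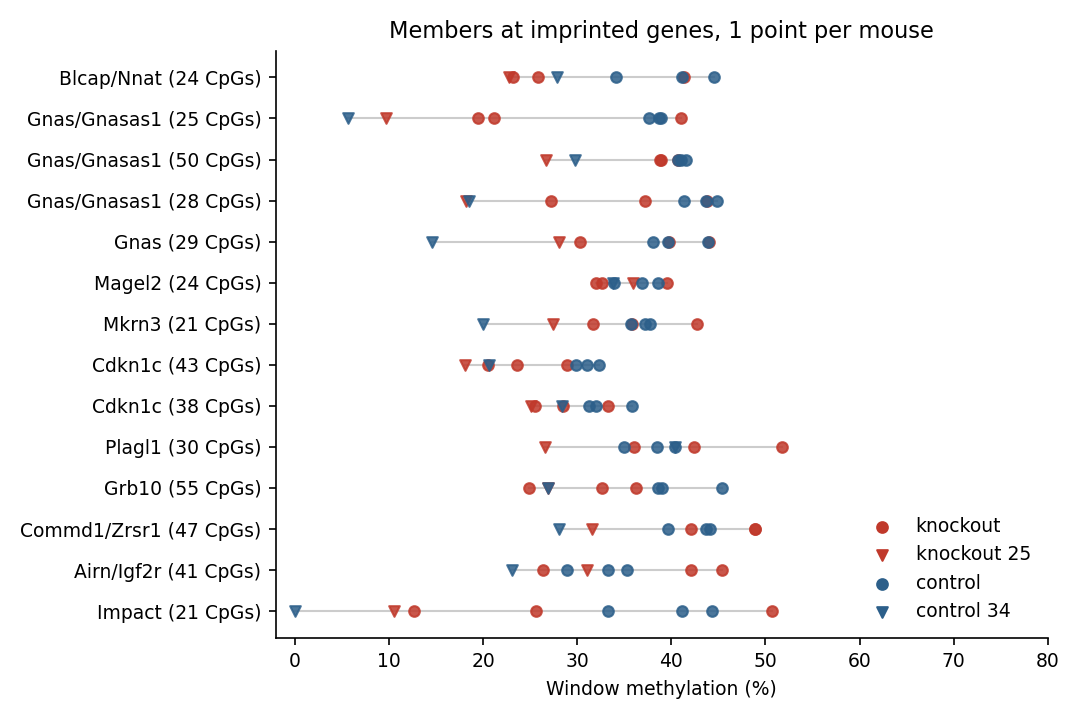
Methylation (x axis, %) of the 14 member windows at imprinted genes (rows, with their number of CpGs), 1 point per mouse and a line over the 8 mice. Knockout 25 and control 34, as triangles, hold the lowest level in 12 of 14 rows.

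The members at imprinted genes were more even from CpG to CpG than the other members. Of their 476 CpGs, 76.7% were at 25 to 75%, against 60.1% of the 4225 CpGs of the other 133 members. Their median SD between CpGs of a window was 9.27 points, against 18.9. Their median SD between mice within a genotype was 7.65 points, against 6.03. These are descriptions of windows chosen by level, and no test was made of them.

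The other 14 imprinted genes with a dense window had no member. For 12 of them every dense window was between 0.0578 and 3.29%, among them Igf2, the fetal growth factor, Dlk1 and Ube3a. The exceptions were Peg12, with windows at 16.9 and 21.8%, and H13, whose window stood at 80.3%. The rest of the 51 symbols on the list, among them H19, Mest, Ndn and Kcnq1ot1, had no dense window measured in all 8 mice.

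Genes of the germ line formed a second group. From a list of such genes, 2 of 8 with a dense window had a member: Dazl, an RNA-binding protein of germ cells, and Tdrd1, a protein of the piRNA pathway that silences transposons. The Tdrd1 window (chr19:56826001-56827000, 21 CpGs) was at 54.7, 65.8, 69.2 and 75.6% in the knockouts and 74.1, 62.2, 70.5 and 67.6% in the controls. The Dazl window (chr17:50293001-50294000, 35 CpGs) was at 52.6, 69.6, 58.1 and 54.5% in the knockouts and 64.8, 64.2, 62.7 and 66.3% in the controls. The 4 controls lay close together within the range of the knockouts. Boll, a relative of Dazl, Rbm46, Rbmxl2, Papolb, Rnf17 and Zfp541, all genes of the male germ line, were noticed among the members after their values were seen. Their windows stood at 60.9% (Boll), 28.1% (Rbm46), 38.7 and 34.5% (Rbmxl2), 46.1% (Papolb), 66.3% (Rnf17) and 59.1% (Zfp541). Because they were picked by name from the members, they give no count for the group.

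The 2 adjoining windows of Rbmxl2, a gene for a testis RNA-binding protein, were among the largest and the most alike between mice. The first (chr7:107209001-107210000, 71 CpGs) was at 34.3, 38.4, 38.2 and 40.7% in the knockouts and 40.1, 37.2, 40.2 and 40.7% in the controls. The second (chr7:107210001-107211000, 100 CpGs) was at 31.1, 29.4, 33.1 and 35.4% and at 37.2, 32.9, 36.8 and 40.3%. Of their CpGs, 56 of 71 and 75 of 100 were partly methylated. Papolb, which encodes a testis poly(A) polymerase, was far less even between mice: its window (chr5:142530001-142531000, 23 CpGs) was at 32.3, 39.5, 65.0 and 37.8% in the knockouts and 54.9, 31.0, 51.1 and 56.8% in the controls.

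Hox genes, the transcription factors that set position along the body and act in blood progenitors, gave 3 member windows at 5 of 37 genes with a dense window. The window over Hoxa5 and Hoxa6 (chr6:52204001-52205000, 46 CpGs, within the longer Hoxa3 gene) was at 36.3, 36.4, 62.0 and 53.4% in the knockouts and 42.9, 20.5, 40.2 and 35.4% in the controls. Knockouts 45 and 46 were above all other mice there. The Hoxa3 window (chr6:52175001-52176000, 42 CpGs) was at 39.8, 32.1, 44.7 and 51.3% and at 41.6, 27.01, 38.5 and 42.1%. The Hoxb3 window (chr11:96345001-96346000, 24 CpGs) was at 39.0, 57.8, 76.9 and 74.7% and at 61.1, 49.9, 66.2 and 59.7%, again with knockouts 45 and 46 highest.

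The other 9 lists had no member. They held the genes of autophagy (21 with a dense window), the DNA methylation machinery (11), stem cell self-renewal (17), erythroid and megakaryocyte (5), myeloid (5) and lymphoid (10) identity, interferon response (4), the clustered protocadherins (12) and metastable epialleles (6). Most of these lists had few genes with a dense window, against a background of 1.48% of protein-coding genes with a member. Runx3, a transcription factor of blood and immune cells, Relb, a subunit of NF-kB, Pou2f2, a B cell factor, Tnfrsf13b, a receptor of B cells, and Kcnn4, a potassium channel of blood cells, are members that no list named.

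A mean near the middle can come from CpGs that are each partly methylated or from a mix of low and high CpGs, and members of both kinds were present. Of the 4701 member CpGs, 2905 (61.8%) were at 25 to 75%, 7.74% were under 10% and 5.0% over 90%. In 13 members at least 90% of the CpGs were partly methylated: 4 lie at imprinted genes (2 at Gnas, 1 each at Plagl1 and Zrsr1), and 9 at other genes, among them Dchs1 (64 of 66 CpGs), a large cadherin, and Il17d (24 of 24), a cytokine gene. The Il17d window (chr14:57542001-57543000) was at 40.4, 58.9, 59.8 and 63.4% in the knockouts and 68.5, 44.9, 71.6 and 74.2% in the controls. In 44 members under 50% of the CpGs were partly methylated.

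In 21 members the CpGs fell into 2 blocks at least 50 points apart, so that the window spans a border between methylated and unmethylated DNA. At Mdga1 (chr17:29842001-29843000), which encodes a cell adhesion protein, 14 CpGs were at 3.11% and the following 11 at 95.3%, and 0 of 25 CpGs were partly methylated. At Dazl 12 CpGs were at 13.1% and 23 at 93.9%, with the border within 19 bp. The window before the Dazl window was at 1.17% and that after it at 97.5%. At Zfp703, a transcriptional cofactor gene, 25 CpGs were at 7.33% and 33 at 76.8%, between neighbouring windows at 0.230% and 87.9%. Similar borders lay at Zfp251 (95.6 and 7.96%), Lgr6 (92.9 and 8.35%), Map3k6 (82.6 and 2.89%) and Slc13a2 (86.6 and 8.84%). Only 1 of these 21 windows, at Mkrn3, belonged to an imprinted gene.

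**Figure D3:**
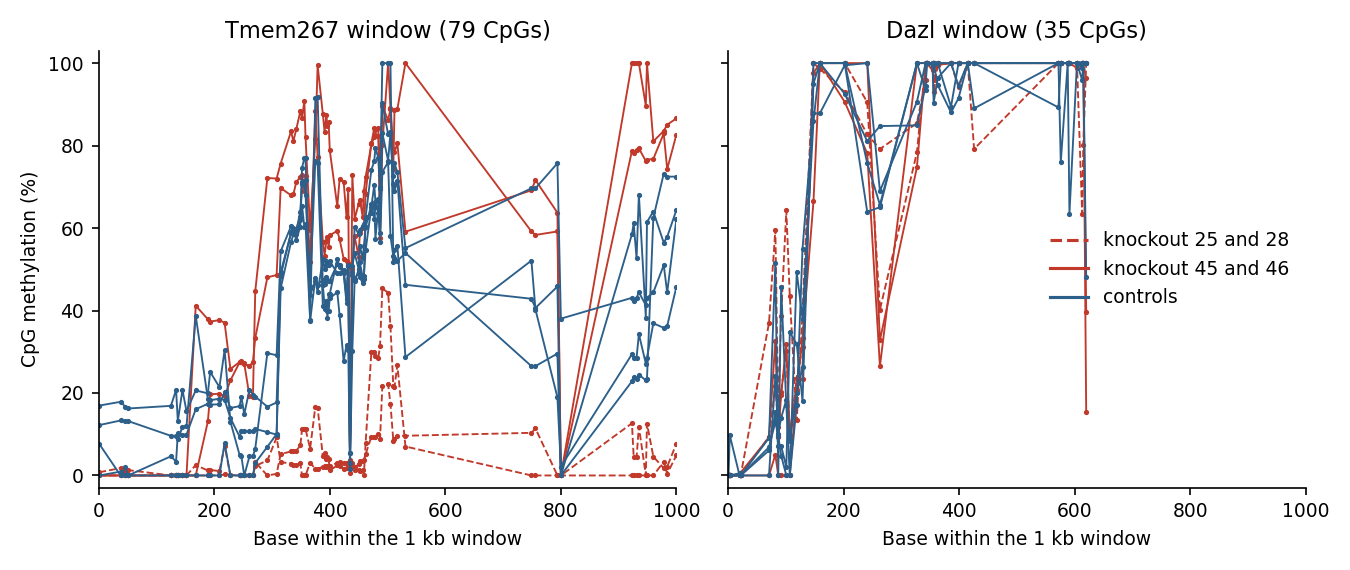
Methylation of single CpGs (y axis, %) along the window (x axis, base 1 to 1000), 1 line per mouse, for Tmem267 (79 CpGs) and Dazl (35 CpGs). At Dazl all mice step up at the same place, from 13.1% over 12 CpGs to 93.9% over 23, and at Tmem267 knockouts 25 and 28, at averages of 4.45 and 10.1% over the last 56 CpGs, lie below the averages of the other mice there, although 9 CpGs of knockout 28 reach 25 to 75%.

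Members also differed in how alike the mice were. The pooled SD between mice of a genotype had a median of 6.19 points and ran from 1.74 to 24.6 points. Its median was 0.172 points in dense windows under 25% and 1.67 points in those over 75%. In 9122 sparser windows at 25 to 75% (3 to 19 CpGs, with a median of 4) it was 8.75 points. Among the 661 of these with 10 to 19 CpGs it was 7.43 points, nearer to the members. A level near the middle of the scale leaves more room for spread than one near its ends. In 9 members the SD was under 3 points, in 23 over 10 and in 2, Tmem267 and Impact, over 15.

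The window least alike across mice was that of Tmem267, which encodes a transmembrane protein, and the neighbouring RNA gene 3110070M22Rik (chr13:119488001-119489000, 79 CpGs, a mean of 458 to 965 reads per CpG in each mouse). It was at 3.15, 4.57, 67.5 and 60.3% in knockouts 25, 28, 45 and 46, and at 45.1, 44.7, 48.3 and 45.9% in controls 1, 34, 36 and 37. The controls lay within 4 points, between 2 knockouts that were nearly free of methylation and 2 that were above every control. The genotype means, 33.9% ± 34.8 and 46.02% ± 1.60 (SD, n = 4 each), do not describe the knockouts, and the model gave an adjusted p of 0.966.

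The contrast was largest in the right part of the Tmem267 window. Over the last 56 CpGs, knockouts 25 and 28 averaged 4.45 and 10.1%, knockouts 45 and 46 averaged 77.6 and 67.2%, and the controls 47.8 to 55.5%. Over the first 23 CpGs knockouts 25 and 28 were at 1.44 and 0.174%, and knockouts 45 and 46 at 17.6 and 21.0%. Controls 1, 36 and 37 were at 12.5 to 16.1% there, and control 34 was at 1.63%. In knockouts 25 and 28, 73 and 60 of all 79 CpGs were under 10%, against 12 and 11 in knockouts 45 and 46 and 6 to 24 in the controls. The next window (5 CpGs) was at 16.6 and 29.8% in knockouts 25 and 28, against 93.1 and 77.9% in the other knockouts and 66.9 to 77.7% in the controls. The preceding window (4 CpGs) was at 65.7 to 84.3% in all mice. Knockout 28 and knockout 25 were both under 10% in 1 member, this window. Control 34, the library with the lowest coverage of methylated DNA, was at 44.7% over the window, and the other controls at 45.1 to 48.3%. As an unweighted mean of CpG levels it was at 34.4%, against 41.8 to 43.3% in the other controls. The part of coverage in these values was not tested.

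Other members with a large spread were Npr2 (14.7 points), a natriuretic peptide receptor, Zswim9 (14.1) and Snx20 (13.996). The Snx20 window (chr8:88627001-88628000, 45 CpGs) was at 37.6, 34.04, 67.4 and 45.6% in the knockouts and 42.2, 28.1, 49.9 and 58.7% in the controls. At the other end was Lhb, the beta subunit of luteinizing hormone (chr7:45420001-45421000, 20 CpGs). It was at 48.1, 47.3, 47.3 and 48.8% in the knockouts and 49.3, 45.3, 44.5 and 44.1% in the controls, an SD of 1.74 points. Rbmxl2 (2.19 points), LOC108167983 (2.29), Srrm3 (2.30), Zfp541 (2.54) and Tnxb (2.58) followed, so that a middling level was as repeatable between mice at some genes as it was variable at others.

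**Figure D4:**
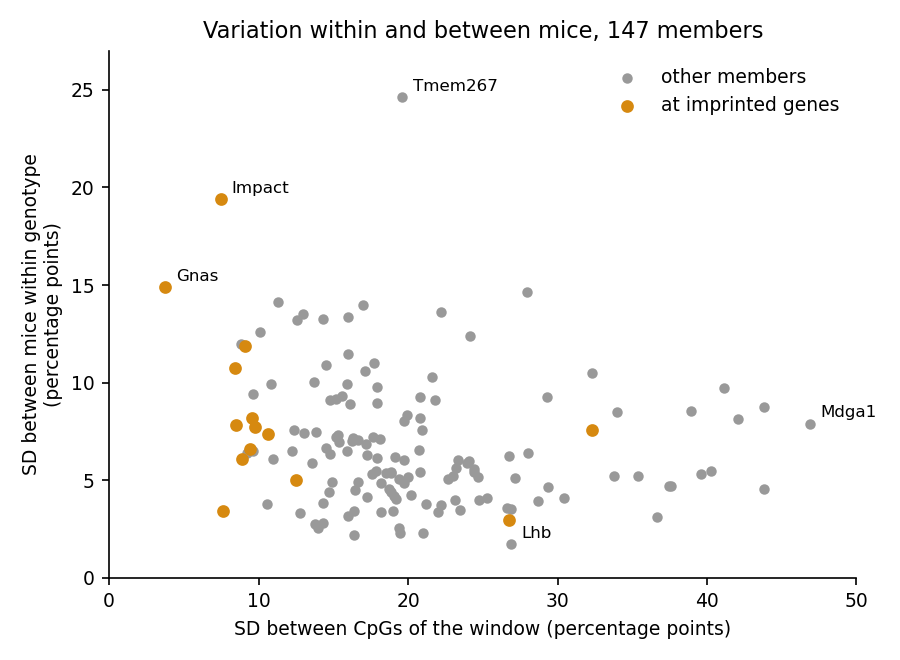
SD between the CpGs of a window (x axis, percentage points, over means of the mice) against the pooled SD between mice of a genotype (y axis, percentage points) for 147 members. Windows at imprinted genes, in orange, lie mostly at the left, with a median of 9.27 points between CpGs, and Tmem267 stands highest at 24.6 points between mice.

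Coverage of methylated DNA was uneven between libraries, and the member levels moved with it. The ratio of median coverage of CpGs over 95% to that of CpGs under 5% was 0.326, 0.485, 0.539 and 0.440 in knockouts 25, 28, 45 and 46 and 0.702, 0.253, 0.652 and 0.517 in controls 1, 34, 36 and 37. The mean level of the 147 members was 39.0, 42.2, 48.8 and 46.3% in the knockouts and 48.1, 37.5, 48.5 and 49.0% in the controls. The lowest ratios and the lowest means were those of control 34 and knockout 25. Control 34 was the lowest mouse in 70 members and knockout 25 in 41, together 111 of 147 (75.5%). At the imprinted genes the member mean was 24.2% in knockout 25 and 22.7% in control 34, and 32.3 to 39.1% in the other 6 mice. The part of coverage in these levels was not tested.

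By genotype the members as a group lay close together. Knockouts averaged 44.1% ± 4.34 and controls 45.8% ± 5.52 (SD over 4 mice each), a difference of -1.71 points that is smaller than either SD. Without control 34 the difference was -4.47 points and without knockout 25 it was -0.0282 points. At the imprinted genes the means were 32.0% ± 5.84 and 34.3% ± 7.78. The knockout mean was below the control mean in 98 of 147 members (66.7%), against 52.6% of the 40020 windows tested. Without control 34 this share was 73.5%, against 61.6% of all tested windows, and without knockout 25 it was 53.1%, against 49.8%. The median difference of the members was -1.96 points, against -0.256 points over all tested windows.

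All 147 members entered the test by genotype, which models the methylated share of a window's reads with quasi-binomial overdispersion, moderated across the 40020 windows with at least 3 CpGs and a level of 5 to 95%. At an adjusted p under 0.05 it called 0 members, and 0.0% of all tested windows. An unadjusted p under 0.05 was reached by 30 members, 20.4% of them, against 6.5% of all tested windows and 14.3% of those with at least 20 CpGs. Of these 30, 21 were lower in the knockouts, against 4.41% of all tested windows, and 9 higher, against 2.09%. This split depended on which mouse was left out. It was 9 lower and 17 higher without knockout 25, and 10 and 11 without control 1. Without control 36 it was 10 and 12, and without control 37 it was 9 and 10. It was 47 and 5 without control 34 and 18 and 8 without knockout 28. Without knockout 45 it was 35 and 9, and without knockout 46 it was 15 and 7. It was 4 lower and 5 higher by edgeR and 5 and 5 without moderation. The same split over all tested windows is not given for these settings, so the shifts are not particular to the members. Direction over all tested windows also moved with the mouse left out. The knockout mean was the lower in 52.6% of them with all 8 mice, in 61.6% without control 34 and in 49.8% without knockout 25. The count of members at an unadjusted p under 0.05 rests on the choice of model and mice. By edgeR's quasi-likelihood test it was 9 members (6.12%) against 3.77% of all tested windows. By limma on log2 ratios it was 2 (1.36%) against 4.82%, and without moderation 10 (6.80%) against 6.27%. The model fitted to dense windows alone gave 14 members (9.52%) against 7.97% of those windows. Leaving out control 37 gave 19 members (12.9%) against 4.5% of windows, and leaving out control 34 gave 52 (35.4%) against 8.25%. Genotype also coincided with the sex chromosomes: the knockout libraries had 7.90 to 9.01 Y cytosines per 10000 listed and the control libraries 1.15 to 1.83, so a difference by genotype and one by Y content cannot be told apart.

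The groups did not overlap in 6 members (4.08%), against 3.49% of all tested windows, a share near the background. Lower in every knockout were 3 of them (2.01% of tested windows): Espnl, Dido1 and Zbtb7c. At Espnl (chr1:91344001-91345000, 29 CpGs), a gene for an actin-binding protein of sensory hair cells, knockout levels were 42.0, 42.9, 42.2 and 48.2% and control levels were 54.8, 48.6, 54.4 and 57.9%. The means were 43.9% ± 2.92 and 53.9% ± 3.87 (SD, n = 4 each), and the moderated model gave an adjusted p of 0.569, the smallest of the members and shared with Dido1. At Dido1 (chr2:180659001-180660000, 21 CpGs) knockout levels were 37.1, 38.7, 45.6 and 42.6% and control levels were 52.3, 46.7, 52.9 and 50.5%. At Zbtb7c (chr18:76145001-76146000, 23 CpGs), which encodes a zinc finger repressor, knockout levels were 47.8, 54.6, 58.3 and 58.5% and control levels were 78.0, 59.2, 68.2 and 66.5%.

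The other 3, higher in every knockout (1.48% of tested windows), were Sh2d3c, Runx3 and Mex3b. The Runx3 window (chr4:135175001-135176000, 27 CpGs) was at 56.4, 52.8, 62.2 and 78.8% in the knockouts and 47.3, 30.6, 47.3 and 50.2% in the controls. The means were 62.5% ± 11.5 and 43.8% ± 8.91, with an adjusted p of 0.629 in the same model. At Sh2d3c (chr2:32741001-32742000, 23 CpGs), a signalling adaptor gene, knockout levels were 70.8, 67.7, 72.9 and 80.4% and control levels were 61.2, 66.8, 63.5 and 64.1%. At Mex3b (chr7:82869001-82870000, 23 CpGs), an RNA-binding protein gene, knockout levels were 69.7, 69.6, 68.6 and 78.8% and control levels were 65.2, 60.2, 66.2 and 64.6%. Knockout 46 was the highest mouse in all 3 windows.

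Several further windows ranked high by p although the groups overlapped. Lmtk3 (chr7:45793001-45794000, 23 CpGs), a kinase gene, was at 46.6, 48.3, 73.9 and 60.2% in the knockouts and 78.7, 66.7, 79.8 and 78.4% in the controls. Its means were 57.3% ± 12.6 and 75.9% ± 6.16, with an adjusted p of 0.596, which became 0.0484 without knockout 45 in the same model, a setting that called 0.0275% of all tested windows. Znrf4 (57.2% ± 5.96 and 64.5% ± 4.56) was also lower, and Neurl1b (69.7% ± 7.54 and 60.5% ± 0.904) and A930004D18Rik (74.4% ± 3.61 and 68.0% ± 2.67) were higher on average, with adjusted p of 0.664, 0.629 and 0.664. None of these passed the threshold with all 8 mice.

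How far the groups overlapped changed with control 34, the lowest mouse in 70 members. Leaving out the lowest control by itself makes it easier for knockouts to lie below all controls. Without control 34, 30 members lay lower in every knockout, against 5.87% of all tested windows, and 3 higher, against 2.38%. With any other 1 mouse left out, 3 to 10 members lay lower, against 2.88 to 4.26% of tested windows. In those settings 3 to 7 lay higher, against 2.43 to 3.67%. Without both control 34 and knockout 25 these counts were 31, against 8.26%, and 7, against 5.0%. Leaving out control 34 also brought members past the adjusted threshold, with 0.0725% of all tested windows called, among them the window of Shank3, a synaptic scaffold gene (chr15:89523001-89524000, 44 CpGs). It was at 56.4, 55.4, 62.3 and 53.6% in the knockouts and 70.5, 71.5 and 72.5% in controls 1, 36 and 37, with control 34 at 44.2%. There, 3 controls stood above all knockouts and control 34 below them.

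**Figure D5:**
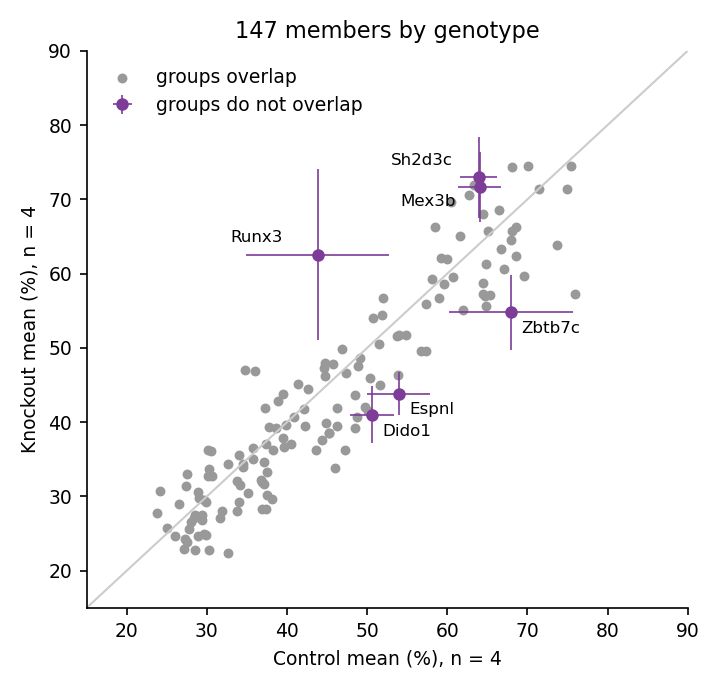
Mean level in the 4 knockouts (y axis, %) against that in the 4 controls (x axis, %) for 147 members, with the line of equality. The 6 members whose groups do not overlap are marked, with bars of 1 SD, and none passed an adjusted p of 0.05.

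Large differences by genotype were few. The means differed by 10 points or more in 9 members (6.12%), against 7.45% of all tested windows and 17.4% of those at 25 to 75%. Besides Espnl, Runx3, Lmtk3, Zbtb7c, Tmem267 and the Hoxa5 window these were Crybb1, Prpsap1 and the second of 2 adjoining members of Fam171a2. The Fam171a2 pair was at 28.3% ± 1.78 and 22.4% ± 3.04 in the knockouts and at 37.3% ± 11.4 and 32.7% ± 10.1 in the controls (SD, n = 4 each), where the SD of the controls was about as large as the difference or larger. Among the 14 members at imprinted genes 9 were lower in the knockouts on average, against 52.6% of all tested windows, and 0 separated the groups, against 3.49%. Grb10 and the larger window of Cdkn1c were the 2 of these 14 with an unadjusted p under 0.05, against 6.5% of all tested windows.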

How the data were processed

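Per the file headers, the authors' tables list, for each mouse, cytosines of CpGs with a count of reads (coverage) and the percent of reads with C and with T. No listed cytosine had fewer than 10 reads. The submitters' processing notes name Bismark, CASAVA 1.8.2 and mm10; for trimming, filters and duplicate reads, the handling was not given in the sources used here. Tables listed 2038266 to 3366162 cytosines, and median coverage of the CpGs shared by all mice was 212 to 293 reads.

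Methylated reads were coverage times percent, strands were added, and the 1087161 autosomal CpGs present in all 8 mice were summed in 1 kb windows. The members and gene lists were chosen with earlier results of these data known. Genotype was tested with a quasi-binomial model whose overdispersion was moderated with limma 3.58.1 in R 4.3.3, with Benjamini-Hochberg adjustment over 40020 windows; edgeR 4.0.16 was an alternative. In simulated data at these windows, with 200 changed windows in each of 5 runs per size, a mean of 4.4% were recovered at 20 points and of 72.3% at 40 points. The changed windows were drawn from all windows at middling levels, most of them sparser than the members, so these are not recoveries of members. With nothing changed, 6.79% of the 40020 windows reached an unadjusted p under 0.05 in the same model, a share over all windows and not over the members.

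Windows are named by an overlapping gene, or the nearest within 50000 bp, in the RefSeq table for GRCm38.p6. Of 253 list entries, 5 had no autosomal gene in the table. Windows described singly were those at imprinted genes, the most and least alike between mice (at least 100 reads per CpG), the smallest p in each direction, the most CpGs, the longest runs, other list members and those next to the limits. Windows outside this rule, chosen after their values were seen, are Boll, Rbm46, Papolb, Rnf17, Il17d, Mdga1, Zfp703 and the other windows with 2 blocks, Relb, Pou2f2, Tnfrsf13b, Kcnn4, Crybb1, Prpsap1 and Shank3. A window called without control 34 is not reported here. Promoter stretches are from RefSeq (GRCm38.p6), whose table here has no entry for chromosome 18.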

Additional observations from a re-analysis of the deposited data

Results flagged for a closer look

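In 88 groups of 4 mice, the highest or lowest mouse was compared with the nearest other mouse, and 14 values stood apart from the rest of their group by more than Dixon's limit (0.829 of the range). Chance gives this in about 1 of 20 groups taken without regard to their values. Some of these windows were chosen for their spread between mice or their small p, so that rate does not hold for them. Windows also share libraries, so the 14 are not independent.

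Control 34 was the low value in 10 of them. Its mean over all members was 37.5%, and the nearest control was at 48.1%. Its mean over members at imprinted genes was 22.7%, and the nearest control was at 37.1%. Among single windows control 34 was low at the Gnas start printed above (5.62%, nearest 37.6%) and at the larger Gnas window (29.7%, nearest 40.7%). It was also low at Mkrn3 (19.98%, nearest 35.7%), Zswim9 (25.9%, nearest 54.8%) and Dchs1 (22.0%, nearest 52.3%). The same held at Lmtk3 (66.7%, nearest 78.4%), Srrm3 (20.3%, nearest 26.3%) and Runx3 (30.6%, nearest 47.3%). This library also had the lowest ratio of coverage of methylated to unmethylated CpGs, 0.253, and the part of that ratio in these values was not tested.

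In the knockouts, mouse 25 was low at the larger Gnas window (26.7%, nearest 38.8%). Mouse 46 was high at Espnl (48.2%, nearest 42.9%) and at Mex3b (78.8%, nearest 69.7%), and mouse 28 was high at Nnat (41.4%, nearest 25.8%).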

How the results depend on the processing

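The number of members moved most with the CpG minimum: 808 windows qualified with at least 10 CpGs and 56 with at least 30. It was 133 at 20 reads per CpG, 162 with an unweighted mean of CpG levels and 155 when knockout 25 and control 34 were left out, a setting chosen after seeing the data. The number of members called by genotype was 0 to 2 when 1 mouse was left out, and 0 to 1 among the windows covered by the naming rule. Members at an unadjusted p under 0.05 numbered 19 to 52 when 1 mouse was left out, 2 with limma, 9 with edgeR, 10 without moderation and 14 when dense windows alone were fitted. Lmtk3 had a smaller adjusted p without knockout 45, given above. The difference in mean member level was -4.47 to -0.0282 points when 1 mouse was left out and kept its sign under each setting run. Of 42 windows covered by the naming rule, 4 moved by more than the spread between mice with the unweighted mean: Espnl to 41.8%, Magel2 to 45.3%, LOC108167983 to 48.5% and Tnxb to 31.9%.

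No paired analysis was possible because replicates are numbered by mouse and no number occurs in both groups. With 4 mice a group, differences of 20 points were rarely recovered in simulated windows, most of them sparser than the members. Recovery in the members alone is not given, and the absence of calls does not show equal methylation. Read counts are not molecule counts, which limits every level in an unknown way.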
